A study of Mus musculus with 15 samples.

Results

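The cytosolic ribosomal protein genes were followed in developing mouse kidney across 3 ages. The members were the genes on the array whose symbol begins with Rpl or Rps followed by a number, or is Rplp0, Rplp1, Rplp2 or Rpsa, with the Rps6k kinases and the pseudogene symbols left out. This rule found 53 genes, read by 70 probes, of the 15967 genes with a named probe. Large-subunit proteins made up 30 of them and small-subunit proteins 16, while 6 were paralogs of ribosomal proteins (Rpl22l1, Rpl36al, Rpl39l, Rpl3l, Rpl7l1 and Rps27l) and 1, Rps19bp1, encodes a protein that binds Rps19 and is no subunit. Rplp1 and Rplp2 were not analysed here.

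RNA came from whole kidneys of BALB/c mice with no treatment, at embryonic day 16 postcoitum (E16d) and at postnatal days 1 (PN1d) and 7 (PN7d), with 5 Illumina MouseRef-8 arrays at each age. The study's methods describe the mice as male, and the ages were profiled to follow early kidney development. The methods also speak of triplicate arrays, whereas the labels give 5 samples at each age, and all 5 were used. The sources used here do not say whether 1 animal or several gave each RNA sample, and p-values therefore reflect only how much these arrays vary. Levels are the authors' quantile-normalized probe intensities on the log2 scale, and a difference of 1 is a 2-fold change.

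Ribosomes are assembled in the nucleolus and cytoplasm from ribosomal RNA and a set of proteins that are needed in nearly equal amounts, and each protein has a fixed place in the large or the small subunit. The messenger RNAs of these proteins carry a 5′-terminal oligopyrimidine (TOP) tract, a run of C and U bases that begins with a C at the cap and through which mTORC1 controls their translation. Synthesis of ribosomes takes a large share of the work of a growing cell, and the mouse kidney forms nephrons through late gestation and into the first days after birth.

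The bases around the annotated start of transcription are shown for the 4 members with the largest falls by PN7d (Rps24, Rpl13a, Rplp0 and Rpl27a), for Rps18 and Rpl39, which rose, and for Rps9, whose probe was at the top of the array range. Each window runs from 10 bases before to 20 bases after the start on the gene's strand, from RefSeq on build GRCm38.p6, and capitals mark the first C followed by at least 4 C or T bases.
Rps24, chr14:24490668-24490697, plus strand: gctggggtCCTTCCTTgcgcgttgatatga
Rpl13a, chr7:45128726-45128755, minus strand: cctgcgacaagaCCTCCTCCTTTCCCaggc
Rplp0, chr5:115559457-115559486, plus strand: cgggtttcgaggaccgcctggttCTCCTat
Rpl27a, chr7:109519185-109519214, plus strand: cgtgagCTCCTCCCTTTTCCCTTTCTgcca
Rps18, chr17:33955646-33955675, minus strand: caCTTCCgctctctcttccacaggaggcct
Rpl39, chrX:37085203-37085232, minus strand: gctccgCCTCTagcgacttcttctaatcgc
Rps9, chr7:3704031-3704060, plus strand: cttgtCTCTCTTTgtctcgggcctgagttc
Each window spans the end of the promoter and the first bases of the 5′ untranslated region. Of the 53 members, 43 matched an entry, with 54 starts. A marked stretch may lie anywhere in the window, also before the start, so it does not show a TOP tract at the cap. Such a stretch lay in 51.9% of the members' windows and in 35.8% of the windows of all 32851 annotated starts. Over the 300 bases from 250 before to 50 after the start, on both strands, the motif CCGGAAG was found at 29.6% of the members' starts and 8.86% of all starts, and GGGCGG at 61.1% of the members' starts and 35.7% of all starts. Every window shown held a marked stretch, whether its member fell or rose. Among other members that fell, the windows of Rps3, Rps15 and Rpl4 held none and that of Rpl14 held a stretch. A link between the stretch and the direction of change was not tested.

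The brightest probes of the kidney markers Umod and Slc12a3 were above the overall median on all 15 arrays, and 6 of 7 kidney markers tested rose between PN7d and E16d. Of 9531 genes tested, 64.5% passed the test between PN7d and E16d in either direction. No 2 arrays were identical, and replicate arrays differed by a median SD over probes of 0.061 at E16d, 0.066 at PN1d and 0.074 at PN7d. All 4 measured proliferation markers fell at both postnatal ages, and their summed intensity was 4310 to 4606 at E16d, 2389 to 2733 at PN1d and 985 to 1485 at PN7d. The sum of 3 nephron progenitor markers was 1062 to 1228 at E16d, 843 to 984 at PN1d and 206 to 219 at PN7d. Gdnf, the signal for branching of the ureteric bud, gave a log2 fold change of -3.38 between PN7d and E16d, and Cited1, a progenitor marker, had a mean of 6.06 at PN7d, below the overall median, against 7.29 at E16d. None of the 6 adipocyte markers exceeded the overall median of 6.22 on any E16d or PN1d array, with summed intensities of 739 to 7269 at PN7d, against 361 to 375 at E16d. The sum of 7 liver markers was 1523 to 9010 at PN1d, with the top on replicate 2, against 1190 to 1595 at E16d. Sums of 5 erythroid markers were 14050 to 15705 at E16d, 12216 to 14156 at PN1d and 11977 to 14871 at PN7d, and those of 5 leukocyte markers 417 to 500, 712 to 1068 and 484 to 601 at the same ages. The part of proliferation, of nephron progenitors and of these other cell types in the values below was not tested. In whole kidney RNA, fewer cells of a type and less RNA per cell cannot be told apart.

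Most ribosomal protein genes were lower at PN7d than at E16d. Of the 50 members past the filter on dim probes, 35 fell and 4 rose (limma, Benjamini-Hochberg adjusted p under 0.05), and the other 11 did not pass the test. The background over all genes tested was 32.2% lower and 32.3% higher. The members' median log2 fold change was -0.27, against 0.0016 for all genes tested. The 5 PN7d arrays lay wholly below the 5 E16d arrays for 28 members and wholly above them for 4, while such separation was seen for 24.8% and 25.3% of all genes. Of the 50 members, 14 passed the test with a fall of at least 1.5-fold, where 9.48% of all genes did, and 5 with a fall of at least 2-fold, where 2.85% did.

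The falls had begun by PN1d for 18 of the 35 members that were lower at PN7d than at E16d. At PN1d, 18 members were lower than at E16d and 1 was higher, where 24.9% of all genes were lower and 21.4% higher, and the members' median was -0.08 on the log2 scale. Their PN1d arrays lay wholly below the E16d arrays for 14 members and wholly above for 1, against 19.3% and 17.6% of all genes. Between PN7d and PN1d, 25 members fell and 2 rose, where 21.2% of all genes fell and 24.1% rose, and the median was -0.17. Here the arrays lay wholly below for 17 members and wholly above for 1, against 13.4% and 14.4% of all genes. The means ran in the order E16d, PN1d, PN7d from high to low in 31 of the 50 members and in 30.1% of all genes tested. In all 3 comparisons, 15 members and 9.4% of all genes fell. These comparisons share arrays, so their counts are not independent of each other. The counts of higher members include the dim paralog Rpl3l in each comparison, which passed the filter only through the postnatal ages.

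**Figure D1:**
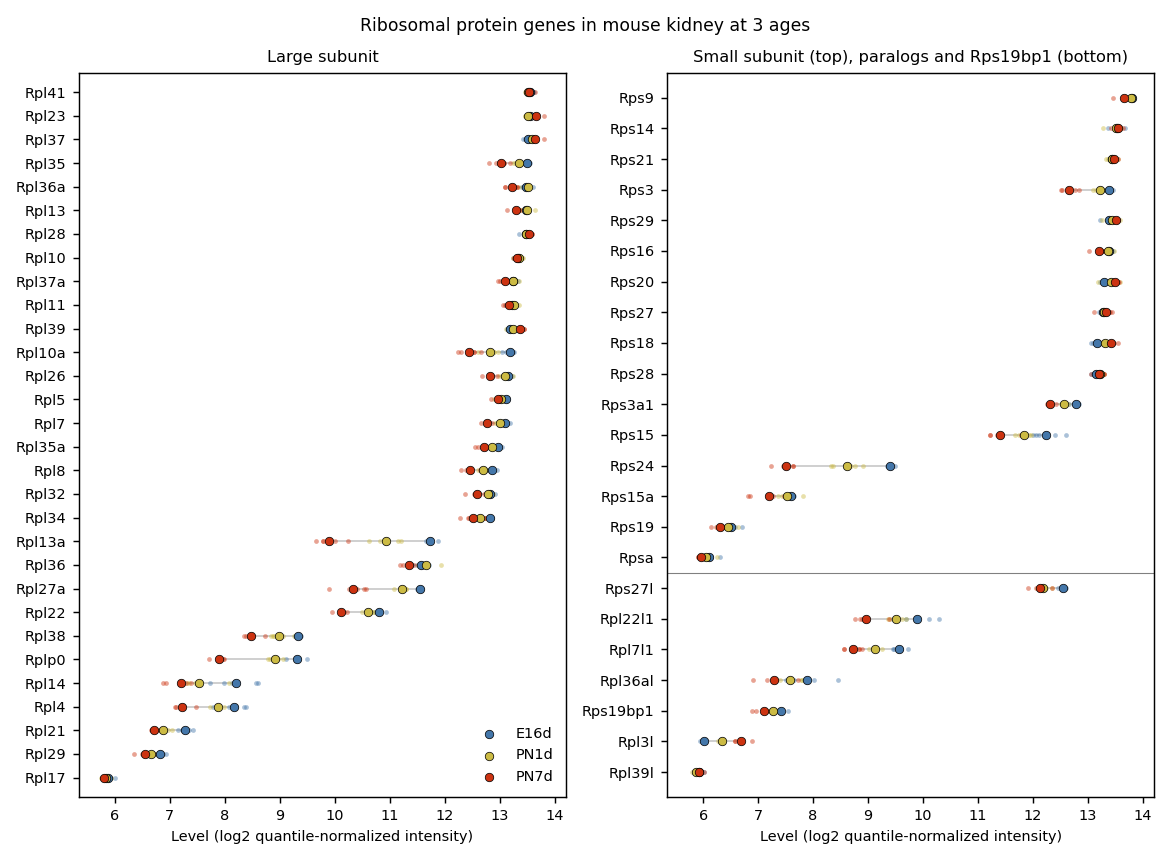
Level of each of the 53 members (x axis, log2 quantile-normalized intensity) at E16d, PN1d and PN7d, as large points for the mean of 5 arrays and small points for single arrays, with genes down the page in order of their E16d mean within each group. The widest gaps between ages belong to Rps24 and Rpl13a. Of the 23 members with a mean above 13 over 15 arrays, 9 were lower and 3 higher at PN7d than at E16d. Of all 48 genes at that level, 15 (31.2%) were lower and 10 higher.

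Among the 29 large-subunit members tested, 22 fell and 1 rose between PN7d and E16d, with a median log2 fold change of -0.28. Of all genes tested, 32.2% fell and 32.3% rose. Rpl13a had the largest fall of the large-subunit members. It is a large-subunit protein that in human monocytes also leaves the ribosome to silence certain inflammatory messages. Rpl13a measured 11.70, 11.65, 11.71, 11.70 and 11.88 at E16d, 11.15, 11.21, 10.62, 10.82 and 10.89 at PN1d, and 10.01, 10.24, 9.78, 9.78 and 9.66 at PN7d. The 3 ages did not overlap, with every array lower at each later age. The PN7d mean was 3.56-fold below E16d (log2 fold change -1.83 ± 0.11, SE, adjusted p = 6.4e-10), and the PN1d mean was 1.73-fold below E16d (-0.79 ± 0.11, adjusted p = 2.6e-05). The other probe of Rpl13a gave -1.73 between PN7d and E16d.

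Rplp0 encodes the base of the ribosomal stalk, which carries the P1 and P2 proteins and recruits elongation factors. Its levels were 9.31, 9.11, 9.32, 9.35 and 9.50 at E16d, 8.95, 9.07, 8.78, 8.97 and 8.82 at PN1d, and 7.99, 7.96, 7.71, 7.90 and 7.92 at PN7d. Again the ages were fully separated, with a log2 fold change of -1.02 ± 0.07 between PN7d and PN1d and -0.40 ± 0.07 between PN1d and E16d. Whether these steps differed was not tested. The whole fall was 2.68-fold (-1.42 ± 0.07, adjusted p = 9.3e-11), and the other probe fell by 1.10 on the log2 scale.

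Rpl27a, another large-subunit protein, had 11.49, 11.59, 11.52, 11.54 and 11.57 at E16d, 11.29, 11.30, 11.08, 11.26 and 11.21 at PN1d, and 10.57, 10.53, 10.26, 9.90 and 10.40 at PN7d. Its 3 ages did not overlap. The PN7d mean was 2.31-fold below E16d (log2 fold change -1.21 ± 0.10, adjusted p = 1.4e-08). A dimmer probe of Rpl27a gave -0.49 for the same comparison and did not pass the test between PN1d and E16d (adjusted p = 0.22), where the brighter one gave -0.31 (adjusted p = 0.014).

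Rpl14 and Rpl4 also fell, with more spread between arrays. Rpl14 measured 7.73, 8.59, 7.99, 8.57 and 8.13 at E16d, 7.45, 7.34, 8.07, 7.50 and 7.31 at PN1d, and 7.52, 6.88, 7.29, 7.38 and 6.93 at PN7d. Its PN7d arrays were all below its E16d arrays, whereas PN1d replicate 3 lay inside the E16d range. The fall by PN7d was 2.01-fold (-1.01 ± 0.18, adjusted p = 0.00012), and the step between PN7d and PN1d did not pass the test (-0.34 ± 0.18, adjusted p = 0.14). Rpl4, which has a long extension lining the tunnel through which the new protein leaves, had 7.78, 8.08, 8.35, 8.20 and 8.38 at E16d, 7.85, 7.73, 7.91, 7.99 and 7.86 at PN1d, and 7.10, 7.21, 7.11, 7.20 and 7.48 at PN7d. Its PN1d and E16d arrays overlapped while the PN7d arrays lay below both. Rpl4 was 1.92-fold lower at PN7d than at E16d (-0.94 ± 0.10, adjusted p = 4.7e-07). The PN1d call for Rpl4 (-0.29, adjusted p = 0.026) did not hold without E16d replicate 3, 4 or 5 or PN1d replicate 2 (adjusted p up to 0.075). It was also lost with the mean of the probes of Rpl4 (-0.24, adjusted p = 0.054), with its dimmest probe (-0.20, adjusted p = 0.13) and by the methods' t-test after Benjamini-Hochberg adjustment in place of limma (adjusted p = 0.072).

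Of the other large-subunit members, Rpl38, which is mutated in the Tail-short mouse, fell by 0.84 on the log2 scale between PN7d and E16d, and Rpl10a fell by 0.73. Rpl5 and Rpl11 form a particle with 5S ribosomal RNA that can bind the p53 regulator Mdm2. Rpl5 fell by 0.14 (adjusted p = 0.023, or 0.070 without PN7d replicate 1), and Rpl11 gave -0.05 ± 0.05 and did not pass the test (adjusted p = 0.44). Rpl10, Rpl11, Rpl23, Rpl28, Rpl37 and Rpl41 were the 6 large-subunit members that did not pass between PN7d and E16d, all with means above 13. Rpl17 was below the filter on dim probes and was not tested, with means of 5.88 at E16d, 5.84 at PN1d and 5.81 at PN7d.

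Rpl39, a very small protein at the exit tunnel, was the large-subunit member that rose. Its values were 13.22, 13.18, 13.25, 13.15 and 13.13 at E16d, 13.17, 13.12, 13.27, 13.32 and 13.36 at PN1d, and 13.30, 13.43, 13.27, 13.45 and 13.39 at PN7d. All PN7d arrays lay above all E16d arrays, and the PN1d arrays overlapped both. The rise was 1.14-fold (log2 fold change 0.18 ± 0.05, adjusted p = 0.0071). Rpl36a, whose gene lies on the X chromosome as does that of Rpl39, had 13.45, 13.40, 13.54, 13.41 and 13.60 at E16d, 13.56, 13.51, 13.56, 13.55 and 13.35 at PN1d, and 13.29, 13.10, 13.10, 13.31 and 13.32 at PN7d. Here only the PN7d arrays stood apart, 1.20-fold below E16d (-0.26 ± 0.06, adjusted p = 0.0016).

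Among the 15 small-subunit members tested, 8 fell and 2 rose between PN7d and E16d, with a median log2 fold change of -0.16. The shares over all genes were 32.2% lower and 32.3% higher. Whether the subunits differed was not tested. Rps24, read by 1 probe, had the largest fall of all members by the brightest probe of each gene. It is needed for the maturation of the small subunit's RNA in human cells and is 1 of the genes mutated in Diamond-Blackfan anaemia. Its levels were 9.39, 9.38, 9.37, 9.35 and 9.48 at E16d, 8.76, 8.91, 8.36, 8.70 and 8.32 at PN1d, and 7.63, 7.64, 7.24, 7.46 and 7.55 at PN7d. The 3 ages were fully separated. Rps24 was 3.71-fold lower at PN7d than at E16d (-1.89 ± 0.10, adjusted p = 1.4e-10) and 1.73-fold lower at PN1d (-0.79 ± 0.10, adjusted p = 1.1e-05).

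Rps15, Rps3 and Rps3a1 came next in the small subunit, with log2 fold changes of -0.84, -0.72 and -0.46 between PN7d and E16d. Rps3, which sits where the messenger enters the ribosome, had a second probe that fell by 1.05. Rps19, the gene most often mutated in Diamond-Blackfan anaemia, gave -0.20 ± 0.08 (adjusted p = 0.044) with overlapping arrays, and 7 of the 15 arrays ended this call when left out singly (adjusted p up to 0.13). Rpsa, the laminin receptor and small-subunit protein, was below the filter, with means of 6.11 at E16d, 6.06 at PN1d and 5.96 at PN7d. Rps14, Rps21, Rps27, Rps28 and Rps29 did not pass the test between PN7d and E16d, with log2 fold changes of 0.01 to 0.12 and means above 13.

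Rps18 and Rps20 rose, both small-subunit proteins of the head. Rps18 measured 13.06, 13.10, 13.29, 13.22 and 13.14 at E16d, 13.23, 13.30, 13.33, 13.21 and 13.44 at PN1d, and 13.38, 13.54, 13.34, 13.48 and 13.33 at PN7d. The PN7d arrays lay above all E16d arrays, by 1.19-fold in the mean (log2 fold change 0.25 ± 0.06, adjusted p = 0.0016). Rps20 measured 13.28, 13.38, 13.29, 13.34 and 13.22 at E16d, 13.59, 13.19, 13.48, 13.36 and 13.51 at PN1d, and 13.46, 13.56, 13.55, 13.47 and 13.45 at PN7d. Its PN7d arrays also lay above its E16d arrays, and the PN1d arrays spread over both ranges. The rise was 1.15-fold (0.20 ± 0.06, adjusted p = 0.014). Both rises were read by probes near the top of the array range.

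**Figure D2:**
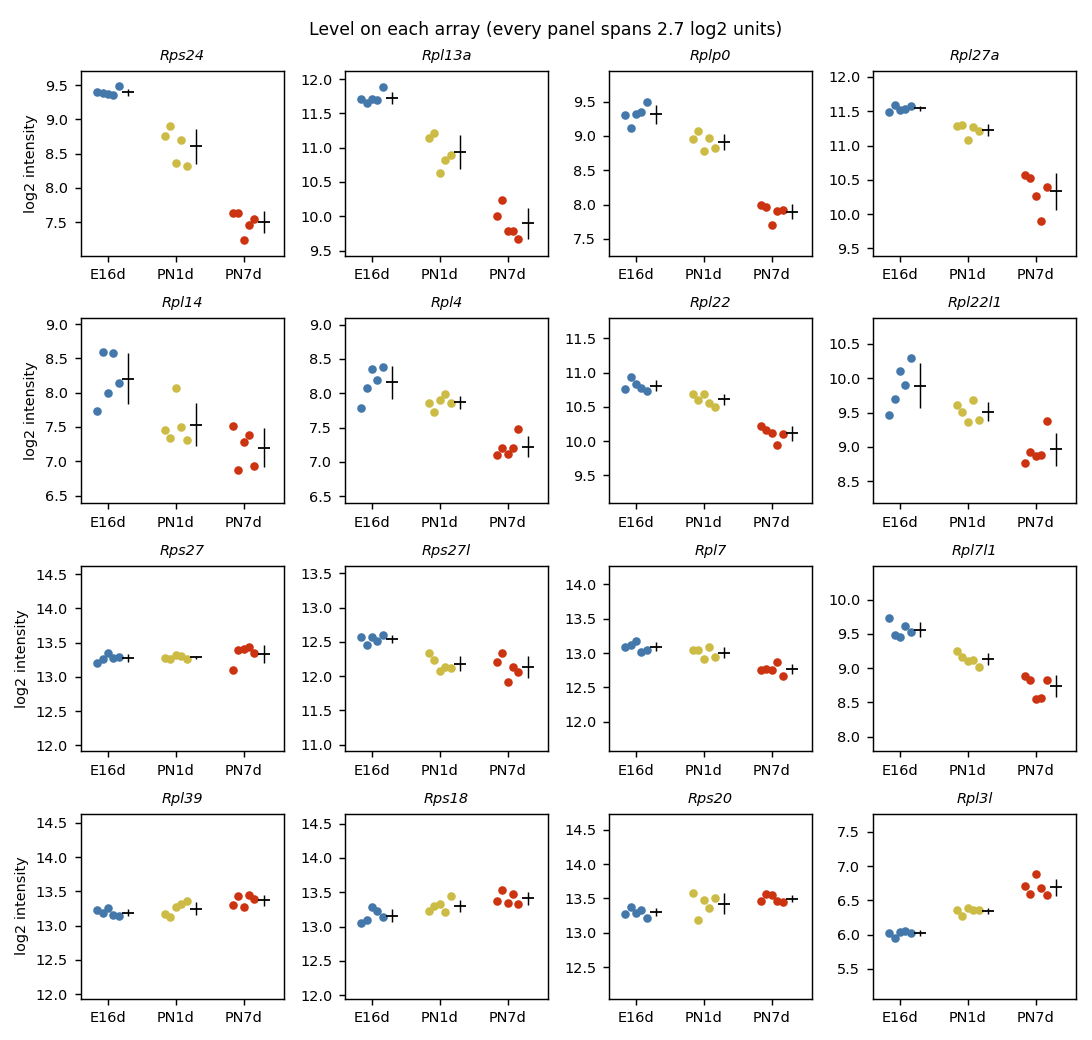
Level on each array (y axis, log2 quantile-normalized intensity) of 16 members at E16d, PN1d and PN7d, with points for the 5 arrays of an age and a dash with a bar beside them for mean and SD. Every panel spans the same number of log2 units, so that the fall of Rps24 (log2 fold change -1.89 between PN7d and E16d) and the rise of Rps18 (0.25) are drawn to one scale.

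The paralogs are given apart from the subunit members. Of the 5 paralogs tested, 4 fell between PN7d and E16d, where 32.2% of all genes fell. Rpl3l was higher, but it passed the filter only through the postnatal ages. Rpl22l1, a paralog whose level rises in mice that lack Rpl22, had 9.46, 9.69, 10.10, 9.90 and 10.29 at E16d, 9.61, 9.50, 9.37, 9.69 and 9.39 at PN1d, and 8.76, 8.93, 8.86, 8.88 and 9.38 at PN7d. Its E16d and PN7d arrays did not overlap, and PN7d replicate 5 reached the lower end of the PN1d range. Rpl22l1 was 1.90-fold lower at PN7d than at E16d (-0.93 ± 0.14, adjusted p = 1.9e-05). Its call between PN1d and E16d (-0.38, adjusted p = 0.035) was lost without any of E16d replicates 3, 4 and 5 and PN1d replicates 2, 3 and 5 (adjusted p up to 0.11), with no filter on dim probes (adjusted p = 0.065) and by the methods' t-test after adjustment in place of limma (adjusted p = 0.085). Rpl22 itself, which is needed for T-cell development in mice, fell as well. It measured 10.76, 10.94, 10.83, 10.78 and 10.73 at E16d, 10.69, 10.60, 10.69, 10.56 and 10.50 at PN1d, and 10.23, 10.17, 10.12, 9.95 and 10.11 at PN7d. The 3 ages did not overlap, and the fall by PN7d was 1.62-fold (-0.69 ± 0.06, adjusted p = 3.2e-08).

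Rps27l is a paralog of Rps27 that p53 induces. It measured 12.58, 12.45, 12.57, 12.52 and 12.60 at E16d, 12.34, 12.24, 12.08, 12.14 and 12.12 at PN1d, and 12.21, 12.34, 11.92, 12.13 and 12.05 at PN7d. Both postnatal ages lay below E16d on every array and overlapped each other. The change was thus in place at PN1d (-0.36 ± 0.07, adjusted p = 0.00056), and the step between PN7d and PN1d was -0.05 ± 0.07 (adjusted p = 0.57). Rps27 had 13.20, 13.26, 13.35, 13.27 and 13.30 at E16d, 13.28, 13.27, 13.32, 13.30 and 13.27 at PN1d, and 13.10, 13.39, 13.40, 13.43 and 13.35 at PN7d. PN7d replicate 1 was the lowest of all 15 arrays for Rps27 and the other 4 PN7d arrays were at or near the top. Its log2 fold change between PN7d and E16d was 0.06 ± 0.06 (adjusted p = 0.38), or 0.12 without that array (adjusted p = 0.029).

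Rpl7l1, whose yeast relative takes part in the assembly of the large subunit, had 9.73, 9.48, 9.46, 9.61 and 9.52 at E16d, 9.26, 9.16, 9.10, 9.12 and 9.01 at PN1d, and 8.89, 8.83, 8.55, 8.57 and 8.83 at PN7d. The ages were fully separated, with a fall of 1.77-fold by PN7d (-0.83 ± 0.07, adjusted p = 6.6e-08), but a dimmer probe of Rpl7l1 near the array median gave -0.07 and did not pass (adjusted p = 0.74). Rpl7 measured 13.09, 13.12, 13.18, 13.01 and 13.05 at E16d, 13.05, 13.04, 12.91, 13.08 and 12.95 at PN1d, and 12.75, 12.77, 12.76, 12.86 and 12.66 at PN7d. Only its PN7d arrays stood apart, 1.26-fold below E16d (-0.33 ± 0.05, adjusted p = 2.8e-05).

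Rpl36al, a paralog of Rpl36a, had 7.51, 7.65, 8.01, 7.83 and 8.46 at E16d, 7.40, 7.31, 7.60, 7.77 and 7.80 at PN1d, and 7.32, 7.17, 6.91, 7.33 and 7.73 at PN7d. PN7d replicate 5 lay inside the E16d range, and the mean was 1.52-fold lower at PN7d than at E16d (-0.60 ± 0.17, adjusted p = 0.0049). With the replicate number as a block, its step between PN1d and E16d (-0.31, adjusted p = 0.14) passed the test (adjusted p = 0.033). Rpl39l, known from testis, was below the filter on dim probes, with means of 5.93 at E16d, 5.87 at PN1d and 5.93 at PN7d. Rps19bp1 fell by 0.30 between PN7d and E16d (adjusted p = 0.0018).

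Rpl3l, a paralog of Rpl3 known from heart and skeletal muscle, was dim and higher at each later age. Its values were 6.03, 5.95, 6.04, 6.05 and 6.02 at E16d, 6.36, 6.27, 6.39, 6.36 and 6.37 at PN1d, and 6.71, 6.59, 6.88, 6.68 and 6.58 at PN7d. No ages overlapped. No E16d array exceeded the overall median (6.22), where a probe gives only a bound, and Rpl3l passed the filter only through PN1d and PN7d, where it was high, so its difference from E16d is a description. Set against that median, Rpl3l was at least 1.38-fold higher at PN7d than at E16d and at least 1.09-fold higher at PN1d. Between PN7d and PN1d it rose by 0.34 ± 0.05 on the log2 scale (adjusted p = 0.00011).

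The members' changes were also set out by the level of the probe. Members were split by their mean level over all 15 arrays at 13 and at 11, boundaries chosen after the values were seen. Of the 23 members above 13, 9 fell and 3 rose between PN7d and E16d, with a median log2 fold change of -0.01, where 31.2% of all 48 genes at that level fell. Of the 11 members between 11 and 13, all 11 fell, with a median of -0.40, where 39.7% of the 478 genes there fell. Below 11, 15 of 16 members fell and Rpl3l rose, with a median of -0.76, where 31.8% of 9005 genes fell. Genes that are no members fell and rose in near-equal numbers at each level, with 6 lower and 7 higher above 13, 179 lower and 177 higher between 11 and 13, and 2848 lower and 2894 higher below 11. The median size of the log2 fold change, without its sign, was 0.14 for members and 0.22 for the other genes above 13, 0.40 and 0.34 between 11 and 13, and 0.76 and 0.26 below 11. Whether the levels differed was not tested. Between PN1d and E16d, 1 of the 23 brightest members fell (10.4% of all genes at that level), 6 of the 11 between 11 and 13 (27.6%) and 11 of the 16 below 11 (24.9%). Between PN7d and PN1d the counts of falls were 8 of 23 (27.1%), 8 of 11 (26.8%) and 9 of 16 (20.9%). The shares in brackets are over all genes at a level, members included. Of the 25 other genes above 13, 4 fell and 6 rose between PN1d and E16d, and 5 fell and 6 rose between PN7d and PN1d.

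**Figure D3:**
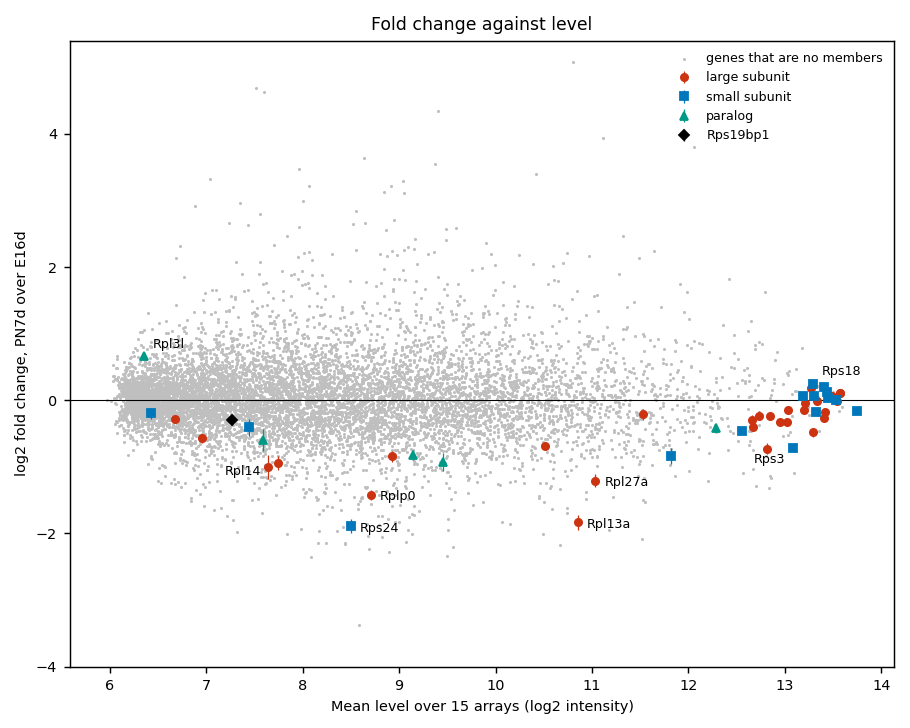
log2 fold change of PN7d over E16d (y axis) against the mean level over 15 arrays (x axis, log2 intensity) for the 50 members tested, coloured by subunit and with bars for the SE, and for the other genes tested in grey. The 23 members above 13 have a median of -0.01, with 9 lower and 3 higher, where 15 of all 48 genes there are lower and 10 higher. All but Rpl3l of the members below 13 lie under 0.

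Many of these probes were near the highest value that the normalized table holds, 13.80. The brightest probe of Rps9, a small-subunit protein, stood at that value on all 5 E16d arrays, on 4 of 5 PN1d arrays and on no PN7d array, so that its E16d level has no spread and its fold change cannot show a level above it. On the fifth PN1d array, replicate 5, it measured 13.73, and at PN7d 13.70, 13.46, 13.68, 13.70 and 13.70. All PN7d arrays were below all PN1d and E16d arrays, with a log2 fold change of -0.16 ± 0.05 between PN7d and E16d (adjusted p = 0.0082). All 4 other probes of Rps9 fell too, by 0.19 to 0.62. Rpl23 and Rpl37 each reached the highest value on 1 PN7d array.

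**Figure D4:**
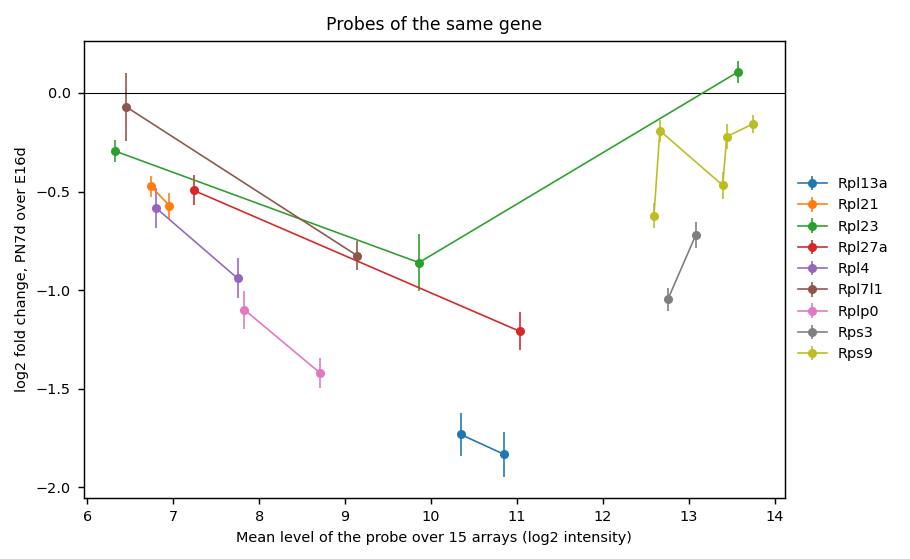
log2 fold change of PN7d over E16d (y axis, with bars for the SE) of each probe past the filter against its mean level over 15 arrays (x axis, log2 intensity), for the 9 members with several such probes, with the probes of a gene joined by a line. Rpl23 is the gene whose probes lie on both sides of 0, at 0.11, -0.86 and -0.30.

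Of the 12 members with several probes, 9 had more than 1 past the filter. Their probes had the same sign in 8 of 9 genes and the same call in 7 of 9 between PN7d and E16d. Between PN1d and E16d the sign was the same in 8 and the call in 5, and between PN7d and PN1d both were the same in 7. Rpl23 was the exception in sign between PN7d and E16d. Its brightest probe had 13.61, 13.61, 13.49, 13.52 and 13.51 at E16d, 13.45, 13.47, 13.58, 13.48 and 13.60 at PN1d, and 13.57, 13.68, 13.66, 13.57 and 13.80 at PN7d, and the ages overlapped. This probe gave a log2 fold change of 0.11 ± 0.05 between PN7d and E16d and did not pass the test (adjusted p = 0.097). A probe of Rpl23 with a mean level of 9.86 fell by 0.86 (adjusted p = 6.3e-05) and the dimmest fell by 0.30 (adjusted p = 0.00022). Between PN7d and PN1d the brightest probe rose by 0.14 (adjusted p = 0.045), a call that was lost without any of 10 single arrays (adjusted p up to 0.12) and turned to -0.33 with the mean of the probes. The direction of Rpl23 thus depends on the probe. Near-identical pseudogene copies of many ribosomal protein genes exist, and whether a probe also reads them was not tested.

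The members' part of the array signal was also summed. As a share of the summed linear intensity of all genes tested, the members took 5.79% ± 0.05 at E16d, 5.58% ± 0.03 at PN1d and 5.15% ± 0.16 at PN7d (mean ± SD, n = 5 each). The ranges were 5.75% to 5.89%, 5.56% to 5.63% and 4.99% to 5.36% in the same order of ages, and no 2 ages overlapped. Bright probes weigh most in such a sum. The 23 members with a mean above 13 had a median log2 fold change of -0.01 between PN7d and E16d. PN7d replicate 2 was the highest PN7d array for 19 of the 50 members and had the lowest adipocyte marker sum at PN7d. Replicate 1, which had the highest adipocyte sum, was the highest for 14 members and the lowest for 10. Replicate 5 was the lowest for 18. A link between the adipocyte sums and the members' levels was not tested. Without PN7d replicate 2, 35 members were lower at PN7d than at E16d and 4 higher, where 3059 of 9531 genes were lower and 3042 higher. Without PN7d replicate 1, 32 members were lower and 5 higher, where 2984 of 9531 genes were lower and 3047 higher. Without PN1d replicate 2, 14 members were lower at PN1d than at E16d and 2 higher. There, 2250 of 9531 genes were lower and 1959 higher.

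Genes that build ribosomes were followed beside the members. Of 62 ribosome assembly factors tested, 52 fell and 1 rose between PN7d and E16d, with a median log2 fold change of -0.54. Gar1 and Fbl, core proteins of the small nucleolar particles that modify ribosomal RNA, fell, with log2 fold changes of -1.33 and -1.31. Eif6, which keeps the subunits apart until the large one is mature, rose by 0.22 (adjusted p = 0.016). In the RNA polymerase I list, 9 of 13 genes fell and Ubtf rose, with a median of -0.49, and the subunit genes Cd3eap and Polr1c gave -0.81 and -0.79. Of 12 chaperones and importers of ribosomal proteins, 9 fell, with a median of -0.55. Importin Ipo5 fell by 1.08. The background for these counts is the same 32.2% of all genes lower and 32.3% higher. At PN1d, 33 of the 62 assembly factors were already lower than at E16d and 4 were higher, and 7 of the 13 RNA polymerase I genes were lower, where 24.9% of all genes were lower and 21.4% higher.

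Other messages with a TOP tract fell too. Of 11 tested, 9 were lower at PN7d than at E16d, where 32.2% of all genes were lower, with a median of -0.58. Nap1l1, a histone chaperone that is also in the chaperone list, fell by 1.47 and Hnrnpa1, a splicing factor, by 1.24. Of 6 genes in the elongation factor list, 4 fell, among them Eef1e1, a partner of the multi-synthetase complex, with -1.04 and Eef1b2 with -0.74. Fau, whose product is a small-subunit protein fused to a ubiquitin-like one and whose symbol the naming rule misses, fell by 0.18 (adjusted p = 0.034). Of 12 mTORC1 and Myc genes, 4 fell and 2 rose, where 32.2% of all genes fell and 32.3% rose, and their median was -0.01. Among them were Mtor, the kinase itself, higher by 0.64 and Deptor, an inhibitor of it, higher by 0.51, while Eif4ebp1, a translation repressor that mTORC1 phosphorylates, was lower by 0.63 and Mycl by 0.61. Of 6 p53 targets, Cdkn1a rose by 0.94 and Zmat3 by 0.24 and 3 others fell, with -0.21 for Phlda3 and -0.17 for Ccng1.

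**Figure D5:**
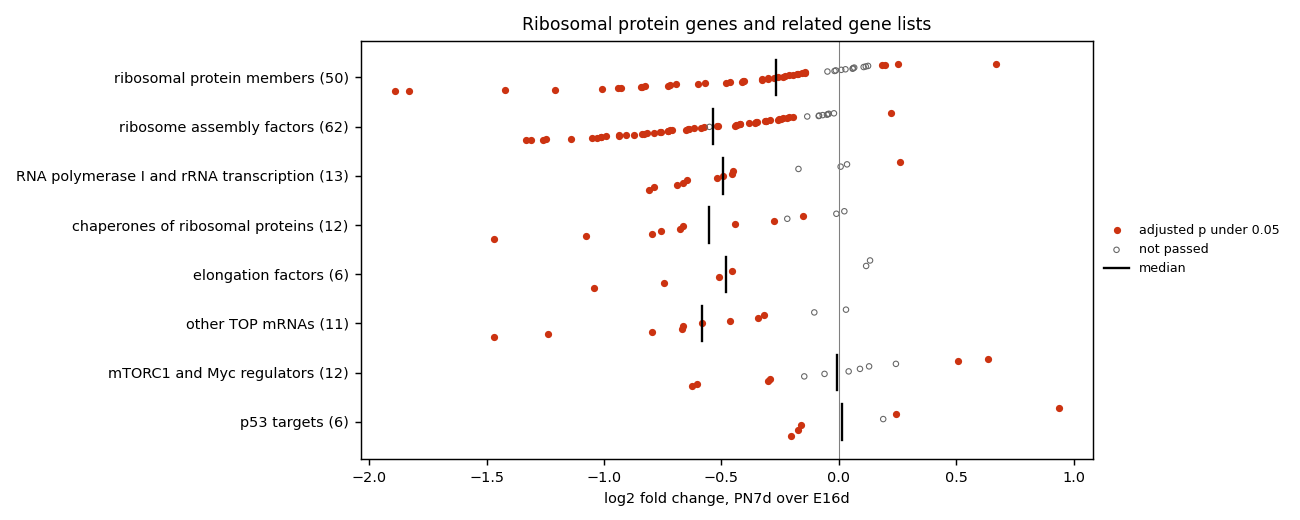
log2 fold change of PN7d over E16d (x axis) for each gene tested of the members and of 7 related lists, with the number of genes beside each name, filled points for adjusted p under 0.05, open points for genes that did not pass and a bar for the median. The medians are -0.27 for the members, -0.54 for the assembly factors and -0.01 for the mTORC1 and Myc genes.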

How the data were processed

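The authors scanned Illumina MouseRef-8 arrays and quantile-normalized the intensities, and the deposited series table holds 24613 probes on the log2 scale. The base was taken from the values, since read as natural logarithms the highest would stand for 988860, above the 65535 of a 16-bit scanner. A further 30 deposited columns (signals and detection p-values for 15 arrays) carry sample numbers that no source ties to an age and were not used. The platform annotation named 20984 probes with 1 symbol, 1 with several and 3628 with none. The brightest probe by mean over 15 arrays stood for a gene. Genes with a mean above the median of all values (6.22) at 1 age or more were tested (9531) with limma 3.58.1 in R 4.3.3, with 1 model of the 3 ages, empirical Bayes variances and Benjamini-Hochberg adjustment over all genes, at 0.05. The number of arrays limits the precision.

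Values on all arrays are given for the 4 largest changes of each direction and comparison, the stalk protein, paralogs and their parents, and members whose probes disagree, and of the related lists up to 2 of the largest increases and 2 of the largest decreases past the test are named. The bound for Rpl3l takes the higher of the median and the dim probe's own value on each E16d array. Members and lists were chosen with earlier results of these data known. Tested on simulated data for PN7d vs E16d (9531 genes, 50 changed at each size), the fit called 68% of genes changed by 1.25-fold, 88% by 1.5-fold and 98% by 2-fold, with 4.35% of calls false. The simulated noise was independent between genes and arrays, and few genes were changed, where 64.5% passed the test in the data. These rates therefore check the fit and do not carry over to the data. Alternatives changed the filter, the choice among probes, the variance model, the arrays fitted, or the centring, or used a replicate block, the methods' t-test or normexp background correction, or left out each array in turn.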

Additional observations from a re-analysis of the deposited data

Results flagged for a closer look

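In 9 of the 63 groups of 5 arrays examined, 1 array stood apart from the other 4 by more than Dixon's critical gap, and chance flags about 1 in 20 groups. Those high in their group were E16d replicate 5 for Rpl13a (11.88, the others up to 11.71), PN1d replicate 3 for Rpl14 (8.07, the others up to 7.50), PN7d replicate 5 for Rpl22l1 (9.38, the others up to 8.93) and PN7d replicate 5 for Rpl4 (7.48, the others up to 7.21). Those low in their group were PN1d replicate 5 for Rpl36a (13.35, the others from 13.51), PN1d replicate 2 for Rpl3l (6.27, the others from 6.36) and PN7d replicate 1 for Rps27 (13.10, the others from 13.35). For Rps9, PN7d replicate 2 was low (13.46, the others from 13.68). PN1d replicate 5 was flagged as low for Rps9 too (13.73), but the others stood at the highest value of the table (13.80). With the others tied at that value, any lower array would have been flagged.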

How the results depend on the processing

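Over the alternatives other than leaving out single arrays, 30 to 36 members were lower at PN7d than at E16d. For PN1d vs E16d the count was 15 to 22, and for PN7d vs PN1d 21 to 26. Where 9531 genes were tested, 2923 to 3327, 2308 to 2781 and 1699 to 2170 of them were lower in the same order. With the filter at the upper quartile these counts were 2025, 1601 and 1387 of 5471 genes, and with no filter 3181, 2352 and 1994 of 15967. The ranges include the t-test without adjustment. Leaving out single arrays gave 32 to 35, 14 to 19 and 22 to 27, with medians of -0.29 to -0.23, -0.09 to -0.07 and -0.20 to -0.15. Of all 9531 genes, 2953 to 3080, 2173 to 2432 and 1829 to 2013 were then lower. The small counts of higher members moved more. Between PN1d and E16d, 0 members were higher with the filter at the upper quartile, which leaves 44 members and drops Rpl3l, and 2 by the methods' t-test without adjustment, or 1 to 2 without single arrays. Between PN7d and PN1d, 0 were higher with that filter and 1 with the mean of the probes, the dimmest probe, only the arrays of the 2 ages, the replicate block, the adjusted t-test, normexp or either centring, or 1 to 3 without single arrays. With the mean of its probes, Rpl23 turned to -0.35 for PN7d vs E16d and -0.33 for PN7d vs PN1d. Its dimmest probe gave -0.30 and -0.19. The main value of Rpl23 for PN7d vs E16d had not passed the test (limma, adjusted p = 0.097). Rpl7l1 turned with its dimmest probe (0.27 for PN7d vs PN1d). Among other values that had not passed the test, the sign turned for Rps27 between PN1d and E16d (-0.00294 after median centring). Without single arrays, Rps27 ran from -0.00891, without E16d replicate 1, to 0.0288. The sign also turned for Rps27l between PN7d and PN1d (-0.105 to 0.000264 without single arrays, the upper end without PN7d replicate 3). Apart from the changes of probe, the cause was not tested.

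The labels do not say whether arrays of different ages with the same replicate number belong together. Deviations of same-numbered arrays correlated at -0.23 to 0.21 in 15 pairs, with 4 over 0.1. Of the 15 arrays, 4 correlated best with their own number. Weak correlations cannot show that no arrays were paired. With the number as a block, 33 members were lower at PN7d than at E16d, 17 at PN1d than at E16d and 24 at PN7d than at PN1d. Of all 9531 genes, 3090, 2416 and 2042 were lower in the same order. The brightest probe of Rps9 was at the highest value of the table on 9 of 15 arrays, where a level above it cannot be read.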
